A study of Rattus norvegicus with 60 samples.

Results

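The synaptic vesicle release machinery was described here as 68 genes in hippocampal CA1 tissue of the rat. They are the genes of the RNA data whose symbols name a synaptotagmin, syntaxin, syntaxin-binding protein, VAMP, SNAP, synapsin, Rab3, complexin, SV2, Unc13, Rims or Cadps protein, and which reached 1 FPKM in at least 5 libraries. FPKM is the number of fragments per kilobase of transcript, scaled to the number of mapped fragments, so levels can be compared between genes. By name 73 of the 22865 genes matched, and Syt8, Syt10, Syt15, Unc13d and Cplx4 did not reach the level. Syt9 was the member closest to the limit, with at least 1 FPKM in 8 libraries, and Syt10 lay closest outside it, with 2 libraries. The symbol rule also took in Snap91, which encodes a clathrin assembly protein and no SNARE. One synaptotagmin is printed as SYT17, as the data spell it.

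All animals were Sprague-Dawley rats aged 90-120 d, with no genetic modification named in the labels. Polyadenylated RNA was measured in 9 naive libraries, in 6 libraries labelled place and 8 labelled threat at 1 h, and in 5 place and 6 threat libraries at 24 h, the times being counted from contextual threat recognition training. DNA methylation was measured by capture with a methyl-binding domain protein (MBD) and sequencing, in 3 naive, 4 place and 3 threat libraries at each time, beside 3 input libraries that skipped the capture. The naive RNA libraries carry no time, and neither the place nor the threat procedure is described further. Nothing in the labels says that libraries of a group came from separate animals, so p-values measure only the spread between these libraries, which may be technical.

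Neurotransmitter is released when a synaptic vesicle fuses with the presynaptic membrane. Fusion is driven by SNARE proteins, the vesicle protein synaptobrevin (Vamp2) pairing with syntaxins such as Stx1a and with SNAP-25 (Snap25) of the plasma membrane. Munc13 (Unc13a) prepares the SNAREs, Rims and Rab3 proteins hold vesicles at the active zone, complexins clamp and promote fusion, and synaptotagmins such as Syt1 sense the calcium that triggers it. Cadps proteins prime dense-core vesicles, which carry neuropeptides, and many other syntaxins and VAMPs work in membrane traffic inside the cell. In CA1 the pyramidal cells, the interneurons and the incoming axons all use this machinery, but mRNA of incoming axons lies mainly in cell bodies elsewhere.

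The libraries were alike in yield, with 12472 to 12947 genes at 1 FPKM or more and a relative depth of 0.838 to 1.22 of the median library. Of 6 CA1 pyramidal marker genes listed, 4 were found. Their presence alone does not test the tissue label. Pcp4, listed for CA2 and CA3 (85.5 FPKM), and C1ql3, listed for dentate granule cells (44.8), were present too. None of the 4 CA1 markers was at 0, and Wfs1, the strongest, had a mean of 114 FPKM. Their summed level ran from 105 to 266 FPKM in naive libraries, from 118 to 263 in place 1 h, from 113 to 223 in threat 1 h, from 171 to 277 in place 24 h and from 166 to 255 in threat 24 h. Threat 1 h replicates 4 and 7 carried choroid plexus markers at 6431 and 3824 FPKM in sum, against 2.28 to 268 in the other 32 libraries. Place 1 h replicate 3 had the highest level of all 34 libraries for 17 members, and naive replicate 4 the lowest for 13 members, and their CA1 marker sums were 118 and 105 FPKM. Naive replicate 4 was also the highest for 5 members. Threat 1 h replicate 6, with a like sum of 113 FPKM, was the lowest for 1 member and the highest for 1. Markers of the neighbouring fields CA2 and CA3 summed to 191 FPKM in place 1 h replicate 3 and to 195 in threat 1 h replicate 3, against 111 to 167 in the other 32 libraries. Threat 1 h replicate 3 also had the highest sum of dentate granule markers, 127 FPKM, against 35.6 to 102 elsewhere, and the part of these markers in the members' levels was not tested. In the deposited table the naive libraries stand in separate column blocks, replicates 5 to 9 ahead of 1 to 4, and 11 members differed between these blocks (9 higher and 2 lower in 5 to 9), where 19% of all tested genes were called (8.61% higher and 10.4% lower). In bulk tissue, fewer cells of a type and less RNA per cell cannot be told apart.

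DNA capture at the starts of the members was low. Over the 3 bins of 500 nt around each gene's start, captured DNA gave a median of 0.143 of the input level, beside 0.174 for all tested genes. This ratio and those that follow were taken over the libraries of both times together. The ratio was below 1 in 59 of 68 members (86.8%, against 82.0% of all tested genes) and at least 2 in 4 members (5.88%, against 8.63%), so the members were close to the other genes. Those 4 were Sv2a (3.90), Sv2b (2.26), Syt2 (2.16) and Unc13c (2.01). At the other end stood Rims2 (0.0068), Cadps (0.0271) and Stx4 (0.0284). Promoter sequences of a pair from each end are printed because they stand at opposite ends of the capture range. They run from 250 bases before to 50 bases after the start, 5′ to 3′ in the direction of the gene, and come from RefSeq on build GRCr8, where 54 of the 68 members matched by symbol. Capitals mark each CG dinucleotide, the target of the captured mark, which reads the same on both strands.
Cadps: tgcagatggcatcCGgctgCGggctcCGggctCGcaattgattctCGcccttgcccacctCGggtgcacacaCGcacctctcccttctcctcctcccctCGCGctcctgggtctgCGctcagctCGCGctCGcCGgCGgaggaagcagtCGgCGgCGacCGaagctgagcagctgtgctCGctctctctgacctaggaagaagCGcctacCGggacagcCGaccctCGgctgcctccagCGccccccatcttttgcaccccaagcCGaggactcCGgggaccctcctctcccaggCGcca
Stx4: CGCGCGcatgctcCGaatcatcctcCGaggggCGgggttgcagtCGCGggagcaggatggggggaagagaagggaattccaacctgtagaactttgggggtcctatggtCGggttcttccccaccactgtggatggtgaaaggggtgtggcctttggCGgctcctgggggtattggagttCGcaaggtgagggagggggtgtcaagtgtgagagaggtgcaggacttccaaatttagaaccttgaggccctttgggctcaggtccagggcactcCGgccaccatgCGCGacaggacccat
Sv2b: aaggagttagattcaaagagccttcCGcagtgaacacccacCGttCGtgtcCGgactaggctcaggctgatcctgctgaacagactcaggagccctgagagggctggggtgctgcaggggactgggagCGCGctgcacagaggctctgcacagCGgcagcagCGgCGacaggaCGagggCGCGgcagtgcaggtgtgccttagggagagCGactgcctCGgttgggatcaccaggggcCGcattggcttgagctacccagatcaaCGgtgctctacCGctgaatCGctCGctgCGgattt
Sv2a: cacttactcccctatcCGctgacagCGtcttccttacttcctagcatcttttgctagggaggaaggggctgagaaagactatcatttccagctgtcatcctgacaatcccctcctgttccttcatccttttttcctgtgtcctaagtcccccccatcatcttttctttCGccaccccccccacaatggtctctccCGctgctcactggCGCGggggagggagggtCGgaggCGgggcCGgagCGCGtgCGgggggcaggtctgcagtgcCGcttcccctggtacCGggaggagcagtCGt

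The printed Cadps promoter (chr15:14720476-14720775, plus strand) held 28 CG, that of Stx4 (chr1:191881817-191882116, plus strand) 14, that of Sv2b (chr1:138562209-138562508, minus strand) 20 and that of Sv2a (chr2:186430113-186430412, plus strand) 15. The pair with high capture therefore held CG counts between those of the pair with low capture. At least 20 CG were found in 29 of the 54 matched promoters (53.7%), close to the 54.9% of promoters of all tested genes, and 94.5% of all RefSeq promoters of this length held at least 1 CG. The capture values were taken at gene starts of another build, rn5, and these starts may differ from those of RefSeq.

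Sv2a encodes a vesicle glycoprotein that is found on most synaptic vesicles and binds the antiepileptic levetiracetam. At 1 h the start of Sv2a had a lowest, median and highest captured level of 1.27, 1.55 and 2.31 RPKM (reads per kilobase, scaled to the number of reads of the library) over 10 libraries, and 0.220, 0.347 and 0.358 in the 3 input libraries. At 24 h the captured levels were 0.515, 0.687 and 1.02 RPKM, and the input levels 0.215, 0.290 and 0.401. Every captured library lay above every input library at both times. Sv2b, the relative found most in forebrain excitatory neurons, had 0.503, 0.723 and 1.00 RPKM captured against 0.258, 0.267 and 0.275 in the input at 1 h. At 24 h the captured values at Sv2b were 0.465, 0.601 and 0.735 and the input values 0.280, 0.327 and 0.340, again with no overlap.

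The start of Cadps, a priming factor of dense-core vesicles, gave captured values of 0, 0 and 0.0307 RPKM (lowest, median, highest) at 1 h, against 0.344, 0.387 and 0.515 in the input. The start of Stx4, a syntaxin of the plasma membrane, gave 0, 0.00746 and 0.0339 RPKM captured against 0.440, 0.529 and 0.534. All captured libraries lay under all input libraries there. Both Sv2a and Cadps were well expressed, at 93.8 and 26.5 FPKM. The level of input DNA at a start could differ between the times in either direction. At Vamp2 it was 0.836 ± 0.178 RPKM (SD, n = 3) at 1 h and 0.128 ± 0.0283 at 24 h, at Unc13b 0.133 ± 0.0167 and 0.436 ± 0.0751, and at Stxbp4 0.299 ± 0.0565 and 0.299 ± 0.0237. Levels in RPKM are therefore given by time, and the times were not compared. The ratios of captured to input level, at gene starts and over gene bodies, pool both times. Over whole gene bodies the captured level was a median of 0.976 of the input for members and 1.06 for all tested genes, and 31 of 68 members were above 1.

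**Figure D1:**
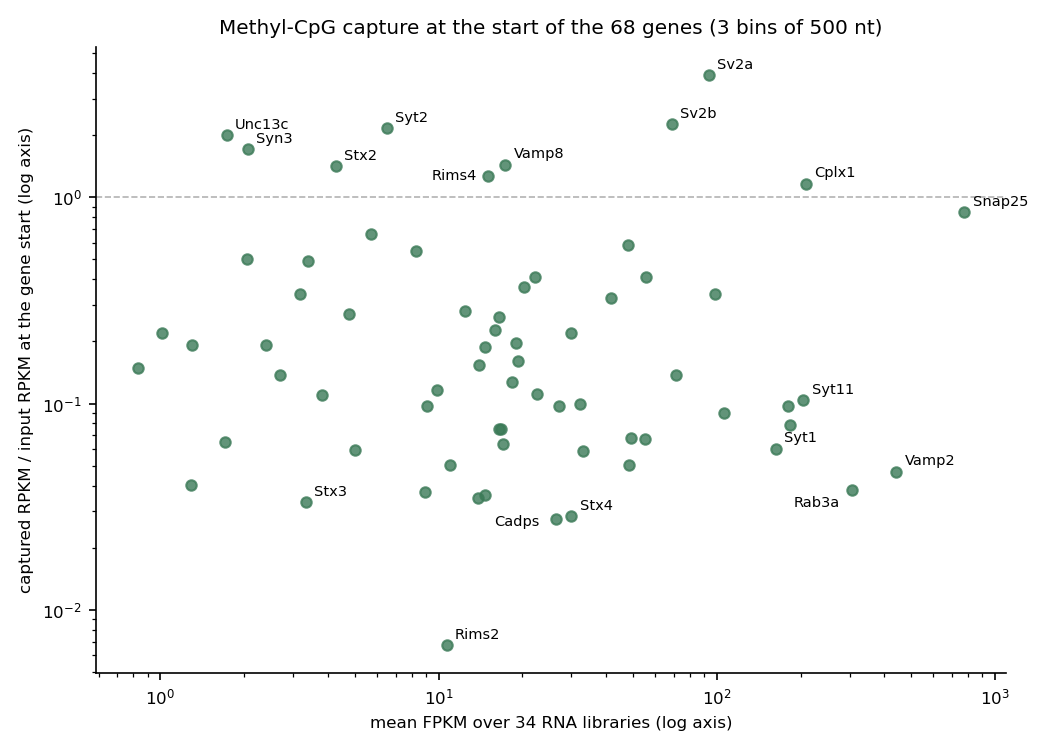
Captured over input DNA at the start of each member (log axis) against its mean mRNA level in FPKM (log axis), 1 point a gene. Captured and input levels are means over the libraries of both times. The start of Sv2a stands highest, at 3.90 times the input, and 59 of the 68 members lie below 1.

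As mRNA, the core of the fusion machinery was among the most abundant transcripts of the tissue. Snap25 had a mean of 775 FPKM over all libraries (lowest 617, highest 975), the rank of 10 among all genes. Vamp2 had 442 FPKM (rank 39) and Rab3a, a vesicle GTPase, 306 FPKM (rank 69). The members' median level was 16.7 FPKM, against 7.79 for all tested genes, and 9 members (13.2%, against 3.21%) reached 100 FPKM. Among these 9 were Snap25, Vamp2, Rab3a, Cplx1 (209 FPKM), Syt11 (205), Cplx2 (180), Syt1 (163) and Syn1 (106). At the low end 16 members had a mean under 5 FPKM.

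Snap25, a SNARE of the plasma membrane, made up 96.3% of the summed FPKM of the SNAP-25 family. Snap47 (17.0 FPKM), Snap29 (8.93) and Snap23 (3.39) made up the rest. Snap47 varied least of all members with a mean of at least 5 FPKM, with a coefficient of variation of 5.22% over the 34 libraries. Stx1a stood at 47.8 FPKM and passed the test in none of the contrasts described later. Stx4 was at 30.0 FPKM, Stx2 at 4.28 and Stx3 at 3.32.

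Vamp2 made up 86.1% ± 1.51 (SD, n = 34) of the sum of Vamp1 and Vamp2, with Vamp1 at 71.1 FPKM. Vamp3, Vamp7, Vamp8 and Vamp4, which serve endosomal and other constitutive traffic, lay close together at 19.3, 18.4, 17.4 and 16.8 FPKM, and Vamp5 at 2.40. The syntaxins of internal membranes were led by Stx12 (48.5 FPKM), Stx6 (33.1) and Stx7 (27.0). Stx16, Stx18, Stx5, Stx8 and Stx17 followed, from 16.5 down to 2.70 FPKM. Of the syntaxin-binding proteins, Stxbp3 (14.7 FPKM), Stxbp5 (14.6) and Stxbp6 (11) lay close together. Stxbp5l (4.76), Stxbp2 (1.30) and Stxbp4 (1.29) were lower.

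Among the calcium sensors, Syt1 accounted for 95.6% of the summed FPKM of the fast sensors Syt1, Syt2 and Syt9. Syt5 had 55.5 FPKM, Syt7, a slow sensor of high affinity, 32.1, and Syt3 19.0. Among the other synaptotagmins, Syt11, which binds no calcium, was higher than Syt1 at 205 FPKM, and Syt4 followed at 41.6. Syt13, SYT17, Syt12, Syt16 and Syt14 ran from 20.2 down to 2.04 FPKM.

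In every family the paralogs were unequal. Unc13a held 81.9% of its family's FPKM (22.3 FPKM), Unc13b 11.7% and Unc13c 6.42%. Rims1 (30.0 FPKM, 48.7%) led Rims4 (24.5%), Rims2 (17.6%) and Rims3 (9.23%). Rab3a held 87.6%, Syn1 64.8% and Syn2 33.9% of their families. Cplx1 and Cplx2 were closest to each other, with 53.4% and 45.7%, as were Sv2a and Sv2b, with 57.3% and 41.7%. Cplx3, Syn3 and Sv2c each held about the same small share, 0.974%, 1.28% and 1.04%. Snap91 stood at 49.3 FPKM.

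The members varied over the libraries by a median coefficient of variation of 13.6%, against 11.5% for all tested genes. Cplx3, a complexin of low level here (3.81 FPKM), ran from 1.06 FPKM in naive replicate 6 to 7.38 in naive replicate 9, a coefficient of 46.6%. Cadps2 had the highest coefficient among members with a mean of at least 5 FPKM, 34.3%, and Stx1a had 29.5%. Stx1a spread inside the groups, from 28.3 to 78.5 FPKM in naive and from 28.4 to 69.7 in threat 1 h, so its groups overlapped widely.

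**Figure D2:**
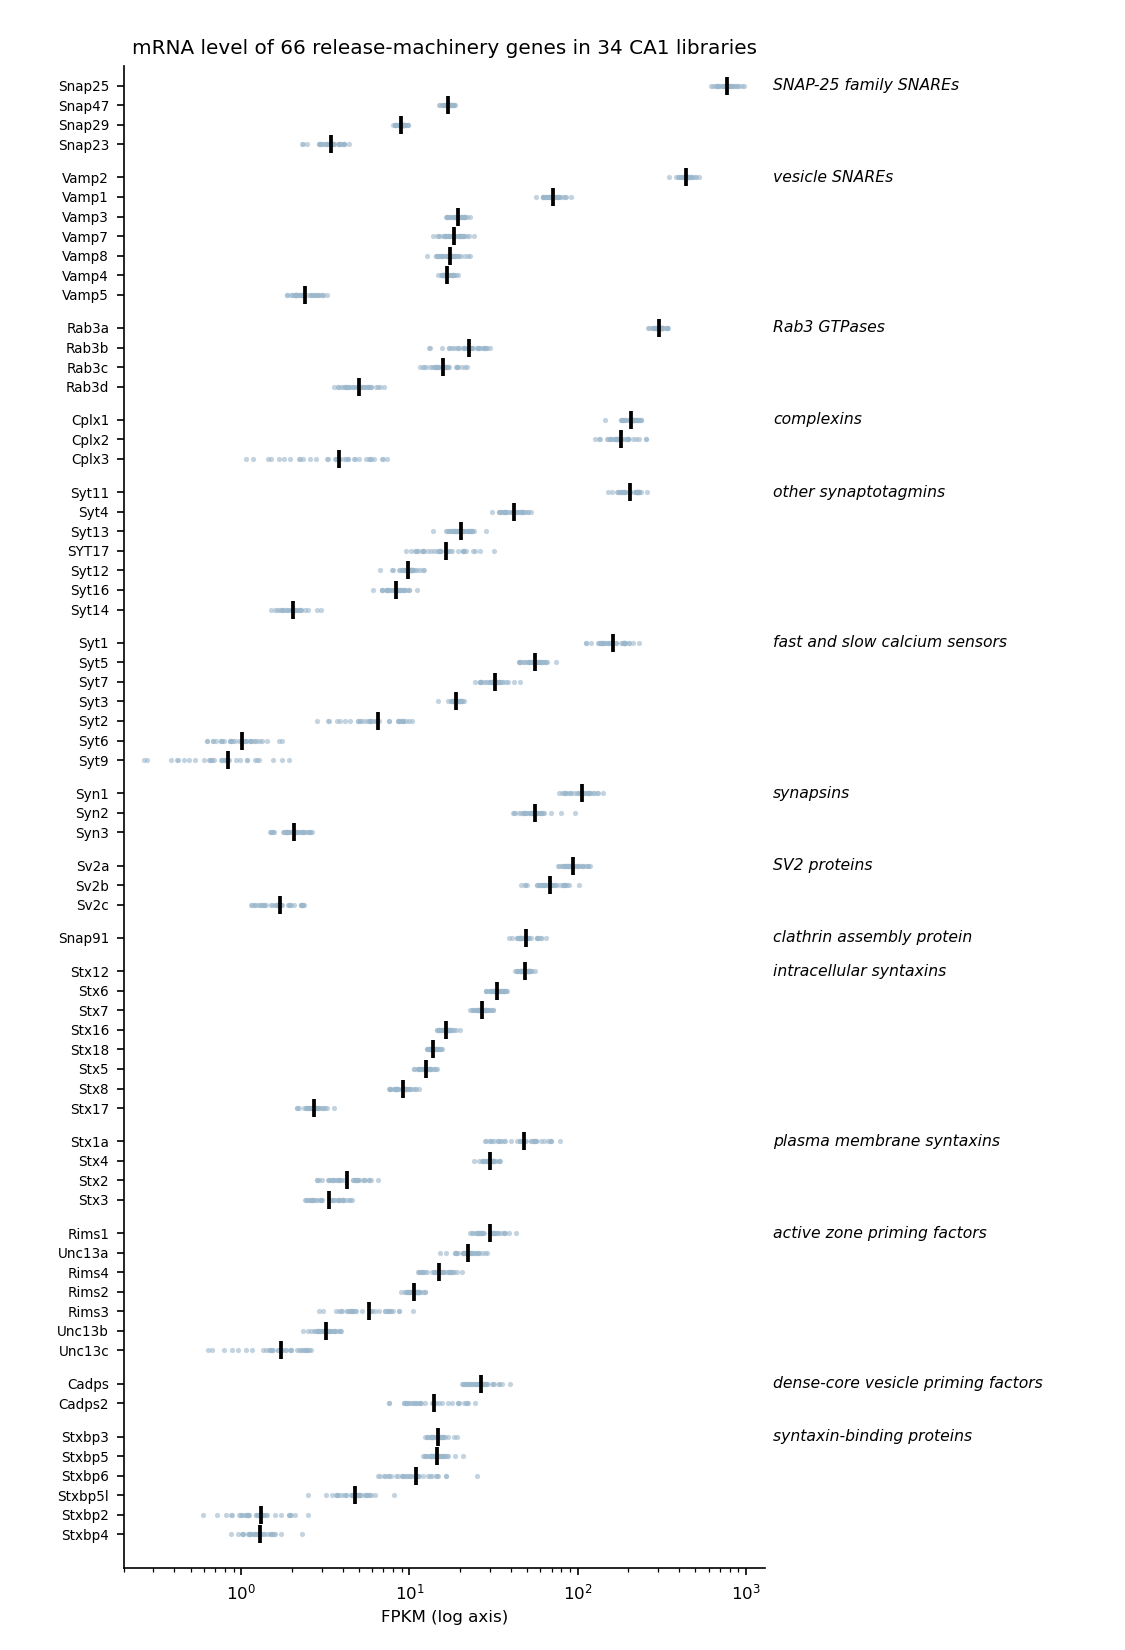
Level of 66 members in FPKM (log axis), arranged by role, with 1 pale point for each of the 34 RNA libraries and a vertical tick at their mean. Snap25 stands highest at 775 FPKM, and 16 members lie under 5 FPKM.

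The first comparison asked whether training changed the mRNA levels within 1 h. No member passed the threshold (limma, Benjamini-Hochberg adjusted p under 0.05 over 13153 genes) in threat against naive, where 0.928% of all tested genes were called (0.806% higher and 0.122% lower), nor in place against naive, where 0.129% were (0.0912% higher and 0.038% lower). At an unadjusted p under 0.05 there were 6 and 3 members, of 2120 and 1284 genes. The lowest p in threat against naive belonged to Snap23, a widely expressed relative of Snap25, with a difference of 0.22 on the log2(FPKM + 1) scale (SE 0.077, limma adjusted p = 0.158). Stxbp4 and Sv2a followed, with 0.18 (adjusted p = 0.174) and -0.16 (adjusted p = 0.231). In place against naive the lowest p were those of Snap29 (0.10, limma adjusted p = 0.338), Stx4 (-0.12, 0.473) and Stxbp2 (-0.26, 0.491). The median difference of the members was -0.01 in threat and -0.03 in place, beside 0.02 and 0.00 for all tested genes.

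Threat and place did not separate at either time. No member and no other gene was called (0% of all tested genes) in threat against place at 1 h, at 24 h, or in the test of whether the change from 1 h to 24 h differed between threat and place. One member had an unadjusted p under 0.05 in each of these 3 tests, of 560, 381 and 360 genes. At 1 h the lowest p were those of Stxbp4 (0.19), Stx16 (0.08) and Syn3 (0.14), and at 24 h those of Syn3 (0.20), Vamp3 (-0.13) and Snap29 (-0.06). In the test of the difference in change they were Stxbp4 (-0.25), Stxbp2 (-0.36) and Vamp3 (-0.17), and every limma adjusted p among these 9 values was at least 0.9996.

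Between 1 h and 24 h some members changed, in shares like those of all tested genes, and 48 of 68 were called in neither condition. From 1 h to 24 h after threat, 11 members rose and 9 fell, 20 of 68 (29.4%), and 29.3% of all tested genes were called (12.5% higher and 16.8% lower). After place 4 rose and 3 fell (10.3%), with 13.3% of all tested genes called (6.61% higher and 6.64% lower). Without place 1 h replicate 3, 10 were called after place (14.7%, against 15.9% of all tested genes). In both contrasts Cadps2, Stx7, Stx12 and Syt16 rose and Stx2, Stx3 and Syt7 fell. The contrasts share no library. The 7 calls of place are 35% of those of threat and 100% of its own, and over all genes the 1456 shared calls are 37.8% and 83.5%. Differences had the same sign in 54 of 68 members (79.4%, against 80.1% of all tested genes), with a correlation across members of 0.869 (all genes 0.809), given as a description since genes are not independent.

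Stx2 and Stx3, syntaxins of the plasma membrane, were lower at 24 h. Stx3, which serves fusion in dendrites and ribbon synapses, had lowest, median and highest levels of 3.45, 3.90 and 4.57 FPKM in threat 1 h and 2.40, 2.53 and 2.82 in threat 24 h. In place 1 h the levels of Stx3 were 2.96, 3.65 and 4.04 FPKM, and the 5 place 24 h libraries had 2.67, 2.54, 2.67, 2.55 and 2.65. All 24 h libraries were below all 1 h libraries for Stx3, in both conditions. The fall was 0.47 on the log2(FPKM + 1) scale after threat (-0.47, SE 0.070, limma adjusted p = 1.39e-05) and -0.35 after place (SE 0.079, adjusted p = 0.00415). Stx3 (chromosome 1, 235218151 to 235262711 in rn5, minus strand) is a transcript of low level, where 1 FPKM of pseudocount shrinks a fold.

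Stx2, also known as epimorphin, had lowest, median and highest levels of 4.64, 4.83 and 5.71 FPKM in threat 1 h and 2.83, 3.37 and 3.81 in threat 24 h, which did not overlap. In place 1 h they were 3.30, 4.91 and 5.28 FPKM, against 3.57, 3.65, 3.46, 2.83 and 3.49 at 24 h. Place 1 h replicate 3, at 3.30, was the one 1 h library of Stx2 among the 24 h values. The difference was -0.47 after threat (SE 0.11, limma adjusted p = 0.00143) and -0.36 after place (SE 0.12, adjusted p = 0.0453). The place call was lost in 10 of the 11 fits that left out 1 library of either group, all but that without place 1 h replicate 3, with adjusted p up to 0.102 (without place 24 h replicate 4).

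Of the 8 syntaxins of internal membranes, 2 rose and 1 fell after threat (median 0.04), and 2 rose and none fell after place (median 0.06). Of all tested genes, 12.5% rose and 16.8% fell after threat, and 6.61% rose and 6.64% fell after place. Stx7, a SNARE of late endosomes, had 23.9, 25.4 and 26.8 FPKM (lowest, median, highest) in threat 1 h and 28.4, 28.9 and 31.3 in threat 24 h. In place it had 23.6, 26.2 and 26.4 FPKM at 1 h and 29.4, 28.3, 30.6, 27.8 and 31.2 at 24 h. No library of Stx7 at 24 h was as low as any at 1 h. The rise was 0.21 after threat (SE 0.040, limma adjusted p = 0.000215) and 0.19 after place (SE 0.045, adjusted p = 0.00548).

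Stx12, a SNARE of recycling endosomes also called syntaxin-13, had 43.4, 45.8 and 51.2 FPKM in threat 1 h and 50.1, 51.6 and 53.8 in threat 24 h. The place libraries had 43.4, 46.6 and 47.5 FPKM at 1 h and 51.6, 51.7, 50.8, 56.0 and 52.2 at 24 h. The place groups did not overlap, and the threat groups did through 1 library, threat 1 h replicate 1 at 51.2 FPKM. Stx12 rose by 0.16 after threat (SE 0.040, limma adjusted p = 0.00323) and 0.18 after place (SE 0.045, adjusted p = 0.00812). Stx16, a SNARE of the trans-Golgi network, went the other way after threat, by -0.15 (limma adjusted p = 0.0089), from 15.6, 17.3 and 18.5 FPKM to 14.5, 15 and 17.2, with overlap.

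Both Cadps genes rose after threat. Cadps2 had 9.29, 10.1 and 13.9 FPKM in threat 1 h and 14.4, 19.6 and 22.4 in threat 24 h, without overlap. In place 1 h it had 7.56, 10.4 and 13.6 FPKM, and at 24 h 19.3, 16.9, 21.9, 10.8 and 21.1, of which the value of replicate 4 (10.8) lay inside the 1 h range. The difference of Cadps2 was 0.80 after threat (SE 0.16, limma adjusted p = 0.000454) and 0.71 after place (SE 0.18, adjusted p = 0.0103), larger than that of any other member in either contrast. Cadps rose by 0.30 after threat (SE 0.11, limma adjusted p = 0.0491), from 20.7, 23.8 and 28.3 FPKM to 27.3, 28.2 and 34.2, and its groups overlapped. The Cadps call was lost in 12 of the 14 fits that left out 1 library, all but those without threat 1 h replicate 3 or 6, with an adjusted p of up to 0.114 (without threat 24 h replicate 1).

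Among synaptotagmins, 3 of the 7 outside the calcium sensors rose after threat, where 12.5% of all tested genes did, and the median of the 7 was 0.29. Syt16, which has no membrane anchor, was at 6.84, 7.59 and 8.28 FPKM in threat 1 h and 8.51, 9.57 and 11.2 in threat 24 h (0.30, SE 0.066, limma adjusted p = 0.00108). Syt11 was at 161, 185 and 204 FPKM and then at 224, 227 and 240 (0.32, SE 0.080, adjusted p = 0.00302). Syt4, found on dense-core vesicles, was at 34, 40.8 and 42.7 FPKM and then at 43.5, 48.6 and 53.0 (0.29, SE 0.077, adjusted p = 0.00508). For these 3 genes the threat groups did not overlap. After place only Syt16 was called among them, from 6.07, 7.86 and 8.54 FPKM at 1 h to 8.78, 8.83, 9.60, 8.47 and 9.11 at 24 h (0.22, SE 0.074, limma adjusted p = 0.0407), with overlap. That call was lost in 7 of 11 fits without 1 library (place 1 h replicates 2, 3 and 6 and place 24 h replicates 1, 2, 3 and 5), with an adjusted p of up to 0.10 without place 24 h replicate 3.

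Of the 7 calcium sensors 1 rose and 1 fell after threat, where 12.5% of all tested genes rose and 16.8% fell. Syt1 had 120, 142 and 169 FPKM in threat 1 h and 182, 190 and 201 in threat 24 h, which did not overlap (0.42, SE 0.12, limma adjusted p = 0.0107). In place the levels of Syt1 were 111, 140 and 233 FPKM at 1 h and 201, 169, 189, 141 and 189 at 24 h; replicate 3 at 1 h had the 233 FPKM, and the gene was not called. Syt7 fell, from 31.0, 33.7 and 45.3 FPKM to 24.6, 27.2 and 32.1 after threat (-0.29, SE 0.080, limma adjusted p = 0.00616). After place it fell from 30.0, 33.6 and 41.6 FPKM to 31.1, 26.1, 28.3, 26.6 and 29.3 (-0.28, SE 0.090, adjusted p = 0.0362). The groups of Syt7 overlapped in both conditions, and the place call was lost in 7 of 11 fits without 1 library (place 1 h replicates 1, 3 and 4 and place 24 h replicates 2 to 5). The highest adjusted p was 0.0932, without place 24 h replicate 2.

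Of the 7 active zone priming factors, 4 fell and none rose after threat, where 16.8% of all tested genes fell, and their median was -0.23. The role was not tested as a group, and the calls of Rims4 and Unc13c were lost in most fits that left out 1 library. Rims1, a scaffold that binds Rab3 and calcium channels, had 26.6, 32.9 and 37.1 FPKM and then 22.8, 25.3 and 33.5 (-0.33, SE 0.098, limma adjusted p = 0.0109). Rims4 had 11.2, 17.7 and 19.1 FPKM and then 12, 13.8 and 14.9 (-0.28, SE 0.10, adjusted p = 0.0369). Both pairs of groups overlapped. Unc13b, a Munc13 of a minority of synapses, fell by 0.19 (-0.19, limma adjusted p = 0.0144), from 2.70, 3.36 and 3.54 FPKM to 2.5, 2.79 and 2.91. Unc13c had 1.66, 1.96 and 2.58 FPKM and then 0.794, 1.46 and 1.82 (-0.40, SE 0.15, adjusted p = 0.0443). The call of Rims4 was lost without any one of threat 1 h replicates 1, 2, 4, 5, 7 and 8 and threat 24 h replicates 2, 5 and 6 (9 of 14 fits, adjusted p up to 0.0869 without the last). The call of Unc13c was lost without any one of threat 1 h replicates 1, 2, 5, 7 and 8 and threat 24 h replicates 1, 4 and 5 (8 of 14 fits, adjusted p up to 0.123 without the last). Unc13a, the main Munc13 here, was at -0.23 with an adjusted p of 0.0605, and none of the 7 was called after place, where their median was -0.24.

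Of the SV2 proteins, Sv2a had 76.0, 85.2 and 91.4 FPKM in threat 1 h and 91.2, 101 and 115 in threat 24 h (0.26, SE 0.075, limma adjusted p = 0.0102). The groups of Sv2a overlapped only at 91.2 to 91.4 FPKM. Sv2c had 1.15, 1.44 and 2.29 FPKM and then 1.65, 2.27 and 2.36 (0.31, SE 0.10, adjusted p = 0.0239), and its call was lost without any one of threat 1 h replicates 5 and 7 and threat 24 h replicates 1 and 4 (adjusted p up to 0.0548, without the last). Vamp7, a vesicle SNARE that tetanus toxin does not cleave, had 14.6, 16.8 and 19.0 FPKM and then 19.8, 20.7 and 22.6, without overlap (0.30, SE 0.080, limma adjusted p = 0.00486). Stxbp4 had 1.20, 1.52 and 2.30 FPKM and then 1.00, 1.12 and 1.29, with overlap (-0.25, SE 0.074, adjusted p = 0.0111). The 2.30 FPKM of Stxbp4 was that of threat 1 h replicate 4, and without replicates 4 and 7 of that group its difference was -0.18 (limma adjusted p = 0.0549). With quantile normalization the calls of Sv2a, Stxbp4 and Unc13b were lost (limma adjusted p = 0.0607, 0.0675 and 0.154).

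The most abundant fusion genes named earlier, other than synaptotagmins, were not called. After threat, Snap25 was at 0.13 (SE 0.090, limma adjusted p = 0.261), Vamp2 at 0.12 (SE 0.060, adjusted p = 0.124) and Rab3a at 0.09 (SE 0.050, adjusted p = 0.188). Stx1a was at -0.39 with an SE of 0.21 (limma adjusted p = 0.155), a wider error than those of Snap25, Vamp2 and Rab3a. Cplx1 stood at -0.01, Cplx2 at 0.04, Syn1 at -0.20 and Snap91 at 0.12. No member of the SNAP-25 family, the synapsins, the complexins or the Rab3 GTPases passed the threshold in either time contrast.

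**Figure D3:**
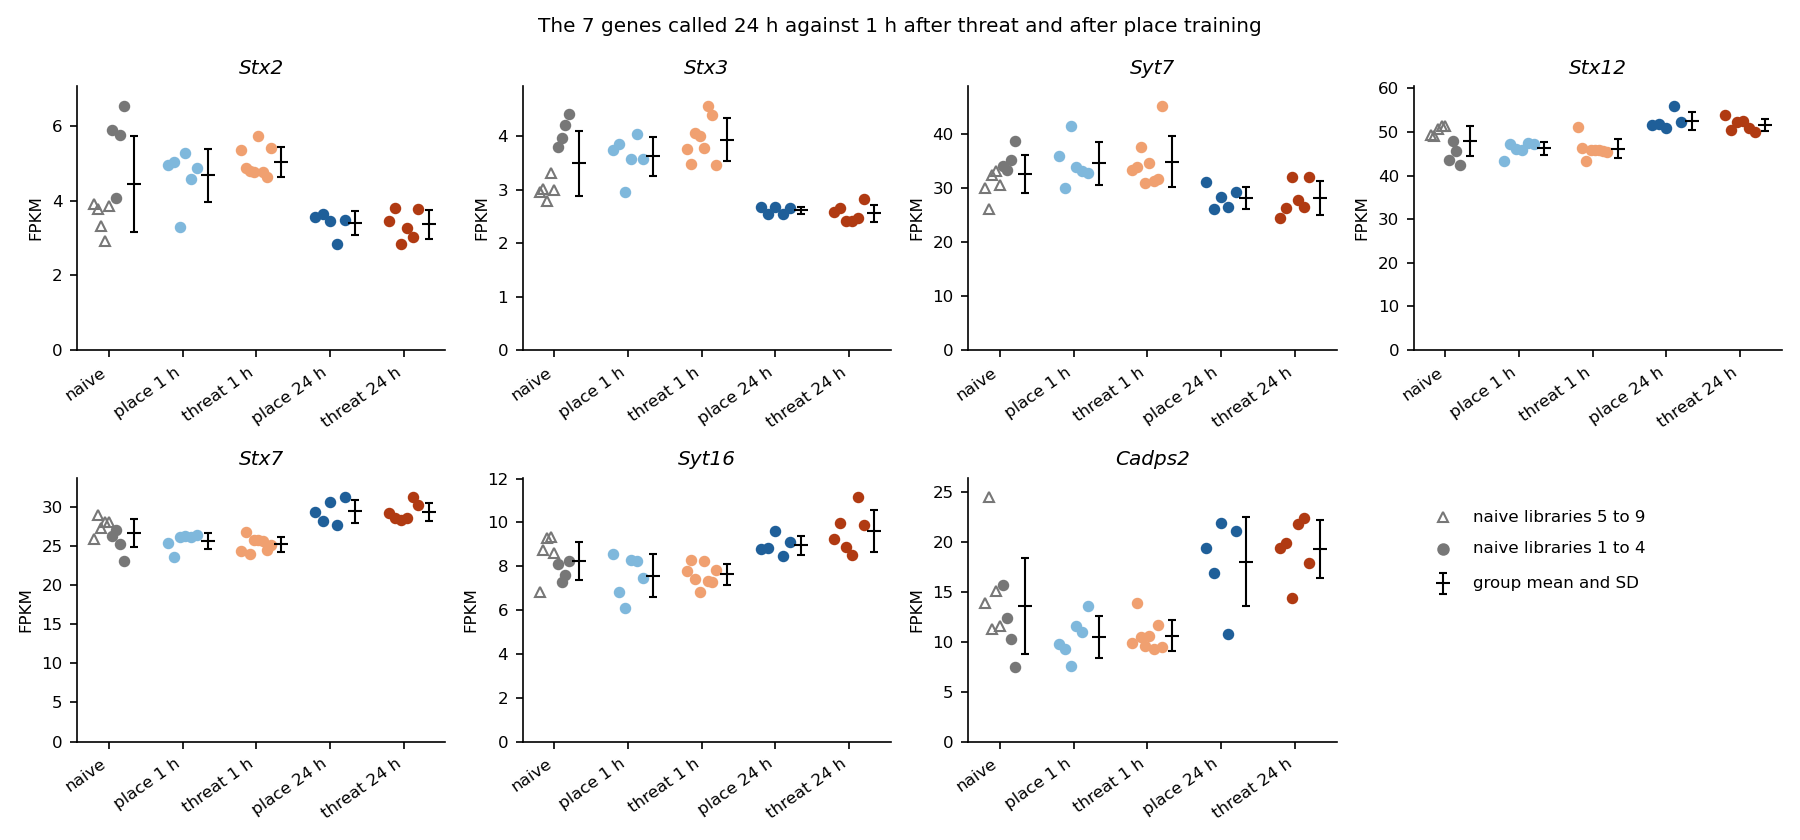
Level in FPKM of the 7 members called in both time contrasts (Cadps2, Stx7, Stx12, Syt16, Stx2, Stx3, Syt7) in every RNA library, by group, with the group mean and SD beside the points and naive libraries 5 to 9 as open triangles. Points of Stx3 at 24 h lie between 2.40 and 2.82 FPKM, under all of those at 1 h.

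Between the groups of 1 h and 24 h, 9 members did not overlap after threat (13.2%, and 10.9% of all tested genes did not), namely Stx2, Stx3, Stx7, Syt1, Syt4, Syt11, Syt16, Vamp7 and Cadps2. After place 3 members did not overlap (4.41%, against 8.43% of all tested genes), namely Stx3, Stx7 and Stx12. Without the threat 1 h replicates 4 and 7, which carried the choroid plexus markers, 15 members were called after threat (22.1%, against 22.5% of all tested genes). The calls lost were those of Sv2c (limma adjusted p = 0.0625), Cadps (0.079), Unc13c (0.0626), Rims4 (0.126) and Stxbp4.

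**Figure D4:**
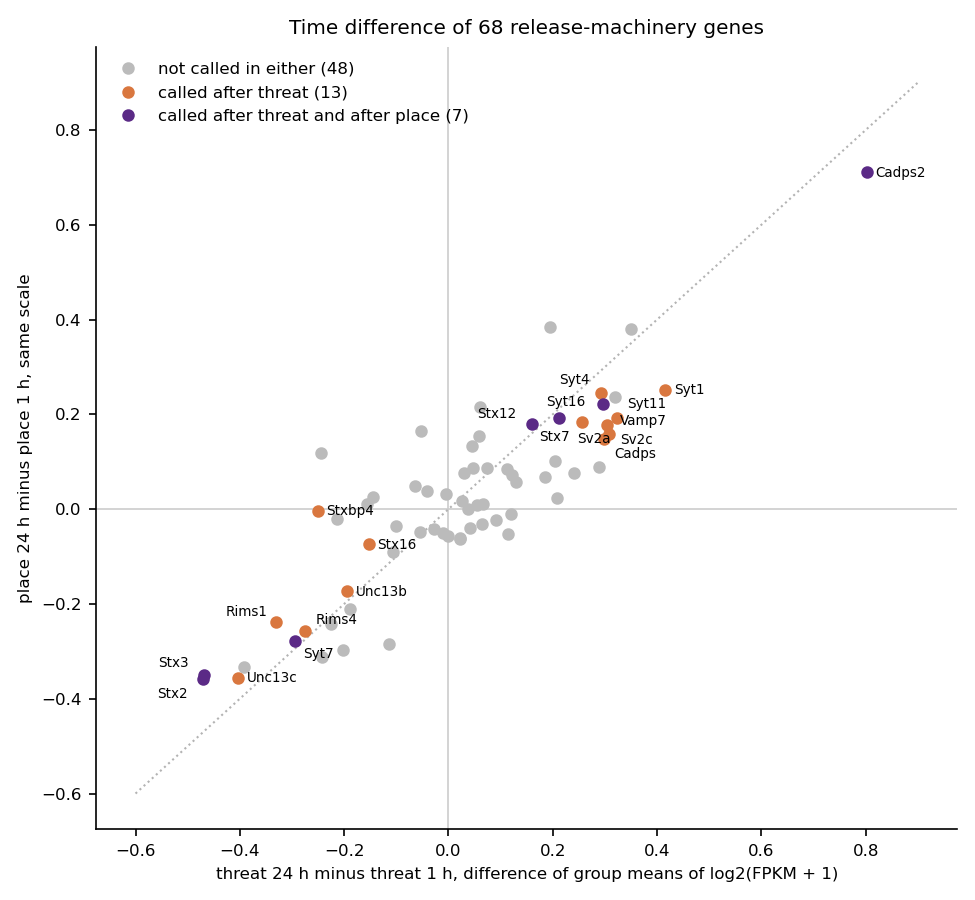
Change from 1 h to 24 h after threat (x axis) and after place (y axis), both as differences in log2(FPKM + 1), 1 point for each of the 68 members. The 7 members called in both contrasts, the 13 called after threat only and the 48 called in neither are drawn apart, and 54 of 68 points have the same sign on both axes.

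At 24 h, 7 members differed between threat and naive (4 higher, 3 lower, 10.3%), with 10.1% of all tested genes called (4.32% higher and 5.77% lower), and 4 between place and naive (2 higher, 2 lower, 5.88%), with 5.05% of all tested genes called (1.49% higher and 3.56% lower). Both counts were thus at the background. In threat, Cadps2 (0.53, SE 0.16, limma adjusted p = 0.0315), Syt4 (0.30, SE 0.076, 0.0113), Syt16 (0.20, 0.0391) and Stx7 (0.14, 0.0232) were higher than in naive. Stx3 (-0.32, SE 0.068, adjusted p = 0.00281), Unc13b (-0.23, 0.00979) and Stx16 (-0.16, 0.0171) were lower. In place, Stx7 (0.14, limma adjusted p = 0.0446) and Snap29 (0.13, 0.0421) were higher, and Stx3 (-0.30, SE 0.072, 0.0137) and Stx16 (-0.16, 0.0359) were lower. Both contrasts use the same 9 naive libraries, so their likeness is not independent. Stx3 had 2.78, 3.30 and 4.40 FPKM (lowest, median, highest) in naive, and no place 24 h library reached the lowest of them. Unc13b was the one member whose threat and naive libraries did not overlap at 24 h (1.6% of all tested genes), and Stx3 the one for place and naive (1.38%).

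Several of these calls were lost when 1 library was left out. In threat this held for Cadps2 (without naive replicate 2, 3 or 4 or threat replicate 1, 2, 4 or 5, limma adjusted p up to 0.0832), Syt16 (naive 1 to 5, threat 1, 2, 5 or 6, up to 0.135) and Stx7 (naive 3 or 4, threat 5 or 6, up to 0.0762). In place it held for Stx7 (naive 1 to 5, place 1, 2, 3 or 5, adjusted p up to 0.157), Snap29 (naive 1, 2, 4, 7 or 8, place 2 to 5, up to 0.138) and Stx16 (naive 2, 3 or 4, place 1, 2, 3 or 5, up to 0.116). The calls of Stx3 in both conditions, and of Syt4, Unc13b and Stx16 in threat, were kept in each of these fits.

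These counts changed with the naive libraries taken as the reference. Against naive 1 to 4 alone, 24 members were called in threat at 24 h (35.3%, against 29.6% of all tested genes) and 18 in place (26.5%, against 23.7%). Against naive 5 to 9 alone none was in either, where 0.456% and 0.0836% of all tested genes were. Stx3 was -0.52 from naive 1 to 4 (limma adjusted p = 4.19e-07) and -0.17 from naive 5 to 9 (adjusted p = 0.227) in threat 24 h. Cadps2 was 0.73 from the former and 0.36 from the latter (adjusted p = 0.00177 and 0.434). At 1 h it was the reverse. Against naive 5 to 9 alone, 11 members were called in threat (16.2%, against 19.8% of all tested genes) and 5 in place (7.35%, against 12.7%), and against naive 1 to 4 none was (0.22% and 0.038% of all tested genes). The members' shares in these fits went up and down with those of all tested genes. Against naive 5 to 9, Stx2 was higher in threat 1 h (0.41, limma adjusted p = 0.000367), as was Stx3 (0.30, adjusted p = 0.000283), and Sv2a was lower (-0.31, adjusted p = 0.000834). Sv2a was at 0.023 (adjusted p = 0.958) against naive 1 to 4.

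The difference between the naive blocks ran along the difference between the times, among members as among all tested genes. Members higher in naive 5 to 9 than in 1 to 4 were Sv2b (0.55), Syt1 (0.48), Cadps (0.43), Sv2c (0.38), Syt11 (0.37), Sv2a (0.33), Syt4 (0.33), Vamp7 (0.31) and Stx12 (0.16). Stx2 (-0.52) and Stx3 (-0.35) were lower there. All 20 members called from 1 h to 24 h after threat had the same sign in the block difference, as had 95.2% of all genes called there, and 10 of the 20 (50%, against 45.6%) were called in it. The same sign was found for all 7 members called after place (97.2% of all genes called there), of which 3 (42.9%, against 58.1%) were called between the blocks. Over all 68 members the signs were alike in 52 for threat (76.5%, against 76.6% of all tested genes) and 44 for place (64.7%, against 74.0%). The labels put all naive libraries in 1 group and name nothing that separates the blocks, and its part in the time differences was not tested.

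Some markers of cell types were also called between the times, where 12.5% of all tested genes rose and 16.8% fell after threat. Single calls in these short lists were not tested against those shares. After threat, 5 of 6 endothelial and mural markers fell from 1 h to 24 h (median -0.28), their summed level being 85.3 to 118 FPKM at 1 h and 73.5 to 90.1 at 24 h, and 2 of 6 astrocyte markers and 1 of 7 oligodendrocyte markers fell. One of 9 interneuron markers and 1 of 6 microglia markers rose, as did 1 of 4 CA1 markers. The interneuron sum was 214 to 272 FPKM at 1 h and 251 to 296 at 24 h. After place, 6.61% of all tested genes rose and 6.64% fell. There 0 of 6 endothelial markers, 2 of 6 microglia markers (higher) and 1 of 6 astrocyte markers (lower) were called. Of the 9 interneuron markers, 1 was higher and 1 lower. The part of these shifts in the members' changes was not tested.

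Of 78 other genes of the vesicle cycle listed for the purpose (vesicle transporters, proton pump, endocytosis, active zone), 75 were found and 74 tested. After threat 21 of these rose (28.4%, against 12.5% of all tested genes) and 6 fell (8.11%, against 16.8%) from 1 h to 24 h, with a median of 0.06 beside -0.01 for all tested genes. After place 5 rose (6.76%, against 6.61%) and 2 fell (2.70%, against 6.64%). The lowest p in threat were those of Sh3gl1, an endophilin (-0.37, limma adjusted p = 1.67e-05), Ston2, an adaptor of vesicle retrieval (-0.71, 0.000203), Sypl1, a relative of synaptophysin (0.28, 0.00236), and Atp6v1a, a subunit of the proton pump (0.29, 0.00256). In place they were Sh3gl1 (-0.32, limma adjusted p = 0.00173), Sypl1 (0.34, 0.00331), Rimbp2, which links Rims to calcium channels (-0.42, 0.0123), and Cltb, a clathrin light chain (0.21, 0.0130). At 24 h against naive, 2 were higher (2.70%, against 4.32% of all tested genes) and 1 lower (1.35%, against 5.77%) in threat. In place 1 was higher (1.35%, against 1.49%) and 1 lower (1.35%, against 3.56%). Sh3gl1 was lower in threat and in place (-0.27 and -0.24). No gene of this list was called at 1 h against naive.

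Methylation was compared within each time, in bins of 500 nt that captured at least 1 RPKM on average and at least 2 times the input. At 1 h 1028 such bins lay in 62 members, of 350378 in all, and at 24 h 208 lay in 32 members, of 85335. Between threat and naive at 1 h, 2 member bins passed the threshold (limma, Benjamini-Hochberg over all bins), where 0.016% of all bins were called. Both lay side by side in Stx8, which encodes a SNARE of late endosomes and spans 54258230 to 54498841 of chromosome 10 in rn5, on the plus strand. Whether they are exonic or intronic was not analysed here, since no rn5 annotation of exons was used.

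The Stx8 bin from 54262001 to 54262500, whose middle is 4.02 kb after the gene start, had 0.661, 0.783 and 1.10 RPKM in naive, 0.769, 2.35, 0.729 and 1.34 in place and 4.02, 1.99 and 2.05 in threat libraries. Threat was above naive in all libraries, and place covered the range between. The difference of threat from naive was 1.37 on the log2(RPKM + 0.25) scale (SE 0.24, limma adjusted p = 0.0062). The bin before it, 54261501 to 54262000, had 0.915, 1.57 and 1.96 RPKM in naive, 1.63, 2.39, 1.70 and 2.60 in place and 4.17, 2.77 and 2.58 in threat (1.01, SE 0.21, adjusted p = 0.0451). These calls rested on single libraries. Without threat 1 h MBD replicate 1 no member bin was called (adjusted p of 0.291 and 0.540), nor without naive replicate 1 (0.0688 and 0.475). Without threat replicate 3, 16 member bins were called, and without naive replicate 2 or threat replicate 2, 1 was. How many of all bins were called in these fits is not given here. The counts thus show only a dependence on single libraries. With median-ratio scaling the adjusted p of the bins were 0.141 and 0.210, and without the input criterion 0.112 and 0.187. The mRNA of Stx8 stood at 9.10 FPKM with a difference of -0.01 between threat and naive at 1 h.

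Between threat and place at 1 h, 1 member bin was called (0.0174% of all bins), again in Stx8, from 54436501 to 54437000 and 179 kb after the gene start. It had 1.13, 2.44, 1.12 and 1.43 RPKM in place, 4.33, 3.51 and 3.05 in threat and 2.69, 1.47 and 3.11 in naive. Threat lay above place throughout and overlapped naive. The difference was 1.17 (SE 0.20, limma adjusted p = 0.00596), and without threat replicate 1 it was 1.04 with an adjusted p of 0.0937 and no member bin was called. Its adjusted p was 0.0674 with median-ratio scaling and 0.0775 without the input criterion. Without place replicate 2, place replicate 4 or threat replicate 3, 3 member bins were called, again given without the share of all bins. Between place and naive at 1 h none was called (0.00285% of all bins), and the lowest p were those of bins in Stx7 (0.57) and Stx8 (-0.59).

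**Figure D5:**
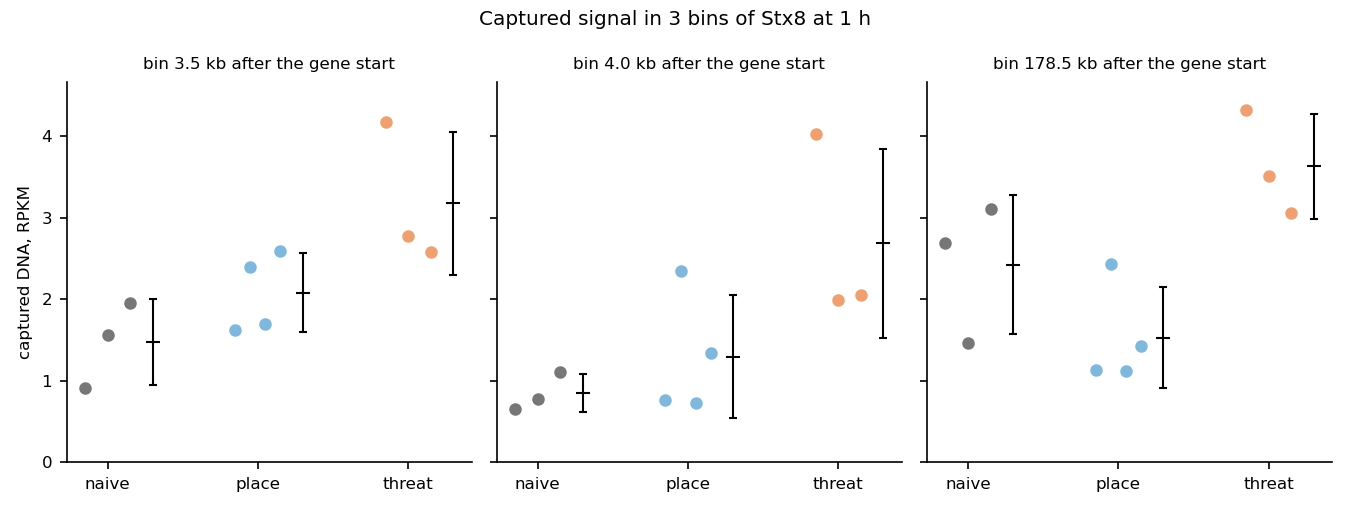
Captured DNA in RPKM in the called Stx8 bins for each captured library at 1 h, by group (naive, place, threat), with the group mean and SD beside the points and each bin named by the distance of its middle from the gene start. The threat libraries lie above all naive libraries in the bins 3.52 and 4.02 kb after the start, and above all place libraries in the bin 179 kb after it.

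At 24 h, 16 member bins were called between threat and place (7.69% of 208), all higher in threat, where 7.7% of all bins were called, so the members' share was that of the background. All tested bins were shifted by a median of 0.28 in this contrast. The largest differences among members were in Stx6 (0.65, limma adjusted p = 0.0306), Sv2c (0.63, 0.0325), Rims1 (0.63, 0.0302, and 0.60, 0.0384, in adjoining bins) and Syt9 (0.59, 0.0348). The Stx6 bin, 77753001 to 77753500 of chromosome 13, had 1.48, 1.15, 1.29 and 1.48 RPKM in place and 2.56, 1.90 and 2.36 in threat. Its groups did not overlap. With libraries scaled by median ratios, which takes out the common shift, no member bin was called. Without 1 library the count ran from 0 to 41: 41 without place replicate 1, 1 without place replicate 2 or 4, and 0 without place replicate 3, threat replicate 1 or threat replicate 2. The share of all bins called in these fits is not given here, so the counts show only a dependence on single libraries.

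No member bin was called between threat and naive at 24 h (0.0105% of all bins) or between place and naive (0.0082%). The lowest p in threat were those of the same adjoining Rims1 bins, at 0.74 (limma adjusted p = 0.0838) and 0.65 (adjusted p = 0.0928), against a median shift of 0.23 over all bins. At an unadjusted p under 0.05, member bins made up 14.6% in threat against naive at 1 h (all bins 15.4%), 3.50% in place against naive (3.34%) and 10.2% in threat against place (9.98%). At 24 h they made up 27.4% (23.1%), 1.44% (4.28%) and 36.5% (37.1%).

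Averaged over the whole gene, no member was called in any of the 6 methylation contrasts by limma, where 0.0152% of all genes were in threat against place at 24 h, 0.0076% in each of the contrasts with place at 1 h, and 0% in the other 3. In the order of the 3 contrasts at 1 h and then at 24 h (threat against naive, place against naive, threat against place), 5, 1, 4, 16, 2 and 23 members had an unadjusted p under 0.05. Of the 68 members these were 7.35%, 1.47%, 5.88%, 23.5%, 2.94% and 33.8%. Among all tested genes the shares were 12.9%, 3.69%, 10.6%, 21.9%, 4.14% and 28.5%. The lowest p were at 24 h between threat and place, for Stx5 (-0.20, limma adjusted p = 0.0667) and Stx2 (0.24, adjusted p = 0.0697). At 1 h between threat and naive they were those of Syt4 (-0.22, adjusted p = 0.343) and Vamp5 (-0.15). These means include bins with little capture. Averaged over filtered bins only, 16 of 32 members were called in threat against place at 24 h, where 1742 of 5004 genes were. In the other contrasts none was called that way.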

How the data were processed

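RNA levels were deposited by the authors as FPKM per gene for 34 libraries, and methylation as RPKM (signal in bins of 500 nt), also deposited by the authors, for 26 MBD libraries. Per the labels' protocols, RNA had RIN values above 8 and libraries were directional; methylated DNA was captured with a MethylMiner kit. Builds rn5 and mm10 and the tools edgeR, DESeq2, Bowtie and TopHat 1.4.0 appear, with no role stated, in the submitters' processing notes. The deposited tables are titled GRCm38, but their positions lie within rat rn5, which is used here. Neither file gives read counts; library reads in bins recovered from the RPKM steps were 31.4 to 39.9 M at 1 h and 42.2 to 59.5 M at 24 h.

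The 13153 genes that reached 1 FPKM in 5 or more libraries entered 1 limma fit with trend (limma 3.58.1, R 4.3.3) on log2(FPKM + 1) of all 34 libraries in 5 groups, with 29 residual degrees of freedom and 9 contrasts. Bins were tested on log2(RPKM + 0.25) in the 10 captured libraries of each time when their captured mean reached 1 RPKM and 2 times the input mean, with 3 contrasts a time. Gene bodies were means over all bins of a gene. Calls have an adjusted p (Benjamini-Hochberg, over every gene or bin in the test) under 0.05. Tables and plots were made with Python 3.11.15, numpy 2.4.6, pandas 2.3.3 and matplotlib 3.10.9, and the fits were tested on simulated data. Results on 2 of the members are not reported here. The members and lists were chosen with earlier results of these data known. Named members are up to 12 largest changes in each direction among those called in a contrast, otherwise the 3 lowest p, and for levels the 2 highest of each role and the extremes of variation; for bins and gene bodies up to 5 were named. The text gives further members' levels and changes for completeness, chosen after their values were seen. For vesicle-cycle genes outside the rule up to 4 of lowest p are named. Most samples sharing a replicate number did not deviate together. A correlation over 0.1 was found in 17 of 58 RNA pairs and 0 of 18 MBD pairs. RNA correlations ran from -0.497 to 0.587, the highest being that of replicate 3 in place 1 h and threat 1 h. Numbers were therefore not taken to pair samples.

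Alternatives were another pseudocount, other filters, median-ratio scaling, quantile normalization, a replicate block, only the groups compared, either naive column block alone and each library left out.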

Additional observations from a re-analysis of the deposited data

Results flagged for a closer look

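In each group of 4 to 10 libraries, a library was picked out when its gap to the nearest other library took up more of the group's range than Dixon's 95% critical value allows. Chance alone picks out about 1 in 20 groups. Of 210 groups of named members tested, 30 (14.3%) had such a library, and the libraries repeat between genes.

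Place 1 h replicate 3 was picked out for 8 members, and it also had the lowest sum of CA1 markers in its group (118 FPKM, the others 199 to 263) and the highest of CA2 and CA3 markers (191, 118 to 156). It was highest for Cadps at 39.4 FPKM (the others 21.0 to 24.1), Snap91 at 65.0 (40.7 to 47.9), Sv2b at 101 (48.3 to 67.9), Syn2 at 96.9 (48.1 to 57.6), Syt1 at 233 (111 to 152), Syt11 at 257 (172 to 191) and Vamp7 at 24.1 (15 to 17.8). It was lowest for Stx2, at 3.30 FPKM (4.59 to 5.28). In the same group replicate 2 was low for Stx7 (23.6 FPKM, the others 25.4 to 26.4) and replicate 5 high for Sv2a (95.8, 83.5 to 88.0).

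Threat 1 h replicate 3 was low for Cplx1 (145 FPKM, the others 203 to 237) and Vamp2 (352, 413 to 453). It was high for Sv2c (2.29, 1.15 to 1.66) and Syt7 (45.3, 31.0 to 37.7), and its sums of CA2 and CA3 markers (195 FPKM, 122 to 167) and of dentate granule markers (127, 35.7 to 72.2) were the highest of its group. Replicate 6 of that group was high for Snap91 (57.1 FPKM, 44.8 to 49.5) and Vamp1 (85.3, 62.0 to 72.1), replicate 1 for Stx12 (51.2, 43.4 to 46.4) and replicate 4 for Stxbp4 (2.30, 1.20 to 1.58).

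Place 24 h replicate 4 was high for Stx12 (56.0 FPKM, the others 50.8 to 52.2) and Stx1a (53.0, 32.0 to 36.5). It was low for Stx2 (2.83, 3.46 to 3.65), Syt4 (36.8, 46.0 to 48.9) and Unc13a (15.2, 21.1 to 22.6). Its sum of CA1 markers was the lowest of its group (171 FPKM, 218 to 277) and that of oligodendrocyte markers the highest (4182, 2053 to 3399). Threat 24 h replicate 3 was high for Rims1 (33.5 FPKM, 22.8 to 25.9).

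In the naive group, replicate 6 was high for Cadps2 (24.5 FPKM, the others 7.51 to 15.6), replicate 4 for Rims1 (42.7, 25.3 to 31.8), replicate 5 for Stxbp3 (18.5, 13.4 to 15.9) and replicate 9 for Syt5 (74.5, 48.2 to 61.2). In the capture data, place 1 h MBD replicate 4 was low over the Stxbp6 gene body (0.103 RPKM, 0.123 to 0.126) and place 24 h MBD replicate 3 high over that of Vamp3 (0.425 RPKM, 0.348 to 0.360).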

How the results depend on the processing

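In RNA, threat against place at both times and the difference of their changes over time gave no member call under any setting run, nor did place against naive in captured bins. With naive libraries 5 to 9 only, 11 members were called in threat and 5 in place against naive at 1 h, and 0 and 0 at 24 h. With naive libraries 1 to 4 only, 24 and 18 were called at 24 h. Sv2a in threat against naive at 1 h then changed sign (0.023, adjusted p = 0.958). When a fit held just the groups of its contrast, the calls at 24 h were 2 in threat and 0 in place. Median-ratio scaling and quantile normalization each left 2 in place at 24 h, and testing genes of any level left 4 members in place from 1 h to 24 h. For fits with only the groups compared, with other scaling or without the level filter, the share of all tested genes is not given here. Captured bins without the input criterion gave 0 member bins in threat against naive and 0 in threat against place at 1 h, and 3 in threat against place at 24 h. A minimum of 2 RPKM gave 1 in threat against naive at 1 h and 1 in threat against place at 24 h, and median-ratio scaling gave 0 in each of these 3 contrasts. A pseudocount of 1 gave 2 in threat against place at 1 h. For these bin counts the share of all bins called is not given here. Averaged over filtered bins only, 16 of 32 member gene bodies passed in threat against place at 24 h, where 1742 of 5004 genes did.

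With the replicate number as a block, 11 members were called in threat against naive at 24 h. The share of all tested genes in that fit is not given here, so the count is no result about the members. The block gave 2 member bins in threat against place at 1 h, 11 in threat against naive (3.61% of all bins called) and 33 in threat against place (14.6%) at 24 h, and moved no other count by over 1.5 times. Both Rims1 bins in threat against naive at 24 h were called under the block (adjusted p = 0.0213 and 0.0281). Leaving out 1 library at a time gave 4 to 10 members in threat and 1 to 8 in place against naive at 24 h, 16 to 21 in threat and 4 to 10 in place over time, and 0 to 0 in the other RNA contrasts. These ranges are given without the shares of all tested genes and show only a dependence on single libraries. In threat against naive 4 were called without naive replicate 3 or 4 or threat 24 h replicate 5. In place against naive 8 were called without naive replicate 6, 2 without naive replicate 1 or 3 or place replicate 1, and 1 without naive replicate 2 or 4 or place replicate 2, 3 or 5. In place over time 4 were called without place 24 h replicate 2, 3 or 5. For bins the ranges were 0 to 16 and 0 to 3 in threat against naive and against place at 1 h. At 24 h they were 0 to 1 (1 without naive replicate 1) and 0 to 41. For gene bodies and for place against naive they were 0 to 0. The bin ranges are given without the shares of all bins called and show only a dependence on single libraries. Of the values for named genes and bins and the counts of vesicle-cycle genes, 511 held under settings other than leaving out a library. A gene or bin held by keeping its direction and side of the threshold, and a count by moving at most 1.5 times. How many of the 511 were counts is not given here. Among genes and bins 64 lost a call and 4 gained one, and 16 counts of vesicle-cycle genes moved. Levels of members near 1 FPKM, among them Syt9, Syt6 and Stxbp4, are of the size of the pseudocount, which shrinks their differences; their counting error was not computed.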
